A study of Mus musculus with 10 samples.

Results

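P19 cells, a pluripotent mouse embryonal carcinoma line, were compared 24 h after transfection of an siRNA against Larp1 (siLarp1, 3 libraries) or of a pool of scrambled siRNAs (siCtl, 3 libraries). Native RNA molecules were sequenced on nanopores, so that each read carries its own poly(A) tail, the stretch of adenosines at the 3′ end, measured in nucleotides (nt). These 6 libraries were all the 24 h libraries among the 10 of the series, and the other 4 were sampled at 48 h. The comparison addresses how the tails and the amounts of mRNAs change when Larp1 is lowered. The members were the reads on annotated nuclear mRNAs with a tail estimate of PASS quality, with mitochondrial mRNAs and annotated pseudogenes left out. They numbered 1468056 of the 2042110 such alignments in the series, on 12787 genes. All groups were of the same cell line, and both 24 h groups carried a transfected siRNA, with no untransfected cells among them. The 3 siCtl libraries had been multiplexed and run with each other and the 3 siLarp1 libraries with each other, so that pool and siRNA cannot be told apart here.

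LARP1 is an RNA-binding protein of the La-related family. It holds the capped 5′ end of mRNAs that begin with a cytosine followed by a run of pyrimidines, the 5′-terminal oligopyrimidine or TOP motif, and it also binds poly(A) and the poly(A)-binding protein. TOP mRNAs code for the ribosomal proteins and for several translation factors, and their translation follows the activity of the mTOR kinase. Cytoplasmic tails are shortened by deadenylases, and an mRNA whose tail has become very short is usually uncapped and degraded.

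The libraries differed in depth. The siCtl libraries held 289738, 344246 and 423398 kept reads and the siLarp1 libraries 119863, 133757 and 157054, so every siLarp1 library was shallower than every siCtl library. Other measures of the runs also separated the groups. Between 79.9% and 81.0% of the tail estimates were PASS in siCtl and between 82.7% and 83.5% in siLarp1 libraries, and reads passed the pore at a mean of 105 nt per second in each siCtl library and 108 nt per second in each siLarp1 library. Their part in the results below was not tested. Mitochondrial mRNAs, whose tails are made in the organelle, had a median tail of 61.2 nt ± 0.888 (SD, n = 3) in siCtl and 61.2 nt ± 0.616 (SD, n = 3) in the siLarp1 libraries, with an exact permutation p of 1. Pluripotency genes were present, with 24 of 27 listed genes detected and Pou5f1, a transcription factor of pluripotent cells, between 2277 and 2910 RPM, its reads scaled to 1000000 kept reads of a library, whereas Dppa3, Zfp42 and Tfcp2l1 had no read. The summed level of 15 neuronal genes was 253 to 386 RPM in siCtl and 300 to 331 RPM in siLarp1 libraries, most of it from Stmn2, and that of 13 endoderm, mesoderm and fibroblast genes was 66.8 to 111 RPM and 82.2 to 117 RPM. Neurod1, Rarb, Sox17, Afp and Col3a1 were among the genes with no read. In such bulk libraries, fewer cells of a type and less RNA per cell cannot be told apart.

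Larp1, the target, was lower in every siLarp1 library. It had 22, 29 and 36 reads in the siCtl libraries and 4, 6 and 3 reads in the siLarp1 libraries, which are 75.9, 84.2 and 85.0 RPM against 33.4, 44.9 and 19.1 RPM. The group means, 81.7 RPM ± 5.04 (SD, n = 3) and 32.4 RPM ± 12.9 (SD, n = 3), did not overlap in their libraries, and siLarp1 reached 39.7% of siCtl on average. The exact permutation test over libraries gave a two-sided p of 0.1, below which 3 libraries against 3 cannot go. In the limma fit of all genes the log2 fold change was -1.34 (SE 0.43), and after Benjamini-Hochberg adjustment p was 0.827. Most Larp1 reads aligned to ENSMUST00000178636.1 (GRCm38, chromosome 11, 58009064 to 58062034). The relatives Larp7, Ssb and Larp4 did not pass either, with log2 fold changes of 0.15, -0.15 and -0.88, and Larp6 had no read.

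Reads were sorted by tail into a <30-nt class and classes of 30 to 90 nt, 90 to 150 nt, and 150 nt or longer. The <30-nt class was the one that separated the groups. It held 2.22%, 2.42% and 2.15% of the reads in siCtl libraries 19, 21 and 22 and 2.66%, 3.22% and 2.63% in siLarp1 libraries 19, 21 and 22. Each of these shares had a 95% Wilson interval of at most ± 0.0946 percentage points, which covers counting error only. The means were 2.26% ± 0.141 (SD, n = 3) and 2.84% ± 0.334 (SD, n = 3), a difference of 0.574 percentage points (exact permutation p = 0.1, adjusted over the 4 classes 0.4). The 30-to-90-nt class held 37.9% ± 1.08 and 37.8% ± 0.825 of the reads (SD, n = 3 each), and its libraries overlapped. The same was seen for the 90-to-150-nt class, at 39.9% ± 0.687 and 39.3% ± 0.548, and for tails of 150 nt or longer, at 19.9% ± 0.380 and 20.1% ± 0.847.

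**Figure D1:**
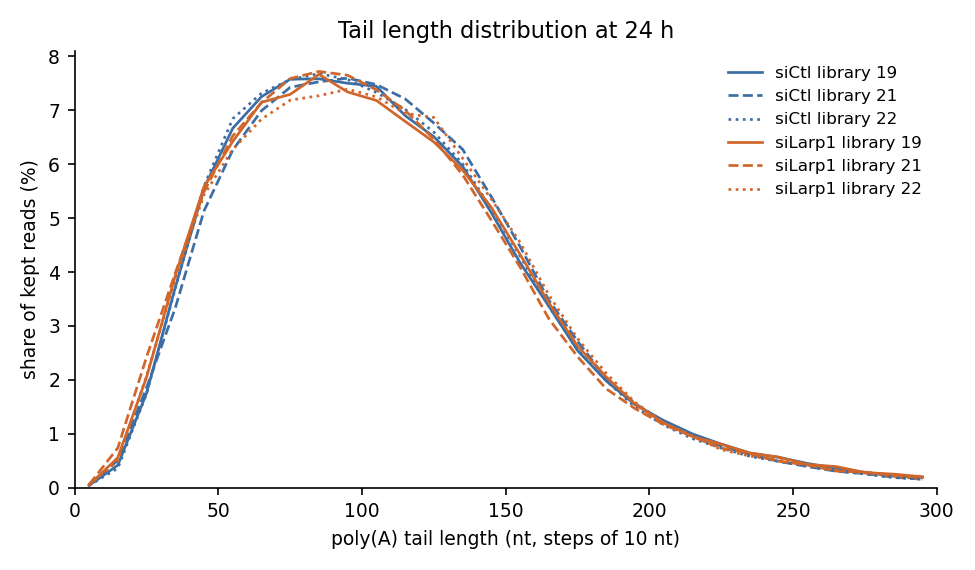
Share of kept reads (%) against poly(A) tail length in steps of 10 nt for the 3 siCtl (blue) and 3 siLarp1 (orange) libraries at 24 h. The 6 curves run together over most of the range and peak between 80 and 100 nt, and the siLarp1 curves lie above the siCtl curves between 20 and 40 nt.

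Over the whole tail range, the difference lay at the low end. The 5th percentile of tail length was 37.94, 38.07 and 38.11 nt in siCtl and 36.52, 35.03 and 36.54 nt in siLarp1 libraries, and the 10th percentile was 47.9 nt ± 0.514 and 46.2 nt ± 0.731 (SD, n = 3 each), both without overlap (exact permutation p = 0.1 for each, adjusted over the 7 percentiles 0.35). The 25th percentile was 70.0 and 69.0 nt, the median 103.0 and 102.6 nt, the 75th percentile 140.2 and 140.4 nt and the 95th percentile 208.6 and 210.3 nt in the means of siCtl and siLarp1 libraries, all with overlapping libraries. In steps of 5 nt, the mean siLarp1 share was 1.46 times the siCtl share between 10 and 15 nt, 1.31 times between 20 and 25 nt, 1.17 times between 25 and 30 nt and 1.08 times between 35 and 40 nt. The libraries of the groups did not overlap in any step between 20 and 40 nt, and overlapped between 10 and 20 nt. From 40 nt the ratio lay between 0.969 and 1.02 in each step up to 60 nt. Below 5 nt, where a siCtl library held 0.0212% of its reads on average, the ratio was 0.788. At the other end, reads with tails of 300 nt or longer made up 0.601% ± 0.0490 in siCtl and 0.707% ± 0.0516 in siLarp1 libraries (SD, n = 3 each), without overlap and with an exact permutation p of 0.1 (adjusted over 11 steps 0.55).

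**Figure D2:**
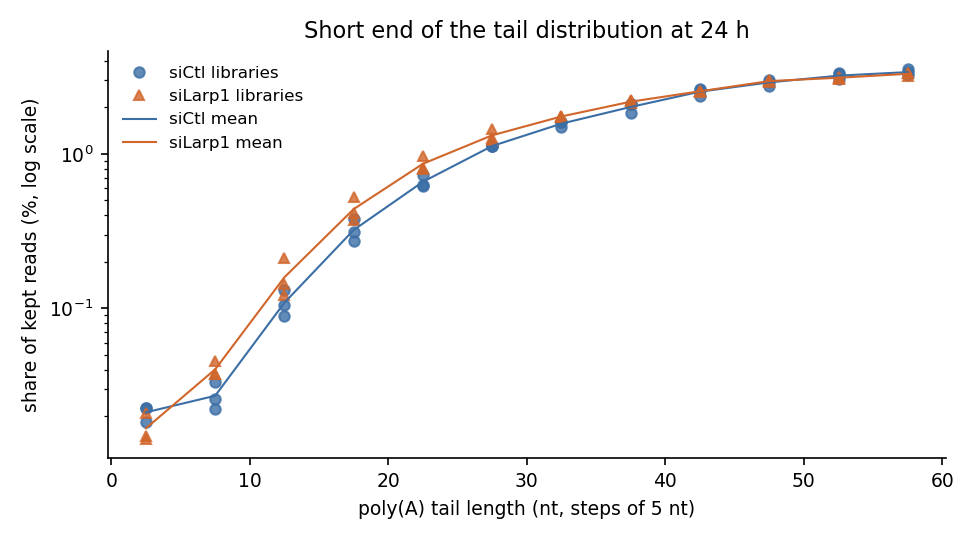
Share of kept reads (%, log scale) by tail length in steps of 5 nt up to 60 nt, with 1 point per library (siCtl circles, siLarp1 triangles) and lines through the group means. The siLarp1 points lie above the siCtl points between 20 and 40 nt, and the group means meet from 40 nt.

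The <30-nt class was also compared with the mix of genes held fixed. For the 512 genes with at least 30 reads in every library, which carried 65.9% of the kept reads, each gene was given the same weight in every library. The <30-nt share then was 1.90%, 1.89% and 1.88% in siCtl and 2.67%, 2.97% and 2.74% in siLarp1 libraries. The difference was 0.896 percentage points (exact permutation p = 0.1, adjusted over the 4 classes 0.2). The SD was 0.00855 in siCtl and 0.156 in siLarp1 libraries. The siCtl shares lay closer together than the counting error of a library, at least ± 0.0437 percentage points (Wilson interval) over all reads. Their small SD is thus no yardstick for the difference. Under the same weights the 90-to-150-nt class was lower in every siLarp1 library, at 41.2% ± 0.806 and 40.0% ± 0.335 (SD, n = 3 each, same exact p), a difference of -1.21 percentage points that was -0.752 without siCtl library 21, while the classes of 30 to 90 nt and of 150 nt or longer overlapped. When each of these genes counted once, the <30-nt share was 2.23% ± 0.150 and 2.88% ± 0.282 (SD, n = 3 each). Within the first run date, which held 1 run of each pool, the difference in the <30-nt class over all reads was 0.606 percentage points, and within the second run date it was 0.579 percentage points.

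At the level of single genes, ribosomal protein genes gained very short tails. Of 1867 genes tested for the <30-nt class, 20 rose, which is 1.07% of those tested, and none fell (quasi-binomial model of the reads in the class per gene with moderated dispersion from limma, Benjamini-Hochberg adjusted p under 0.05). Without adjustment 140 were higher and 33 lower at p under 0.05. All 20 code for proteins of the cytoplasmic ribosome, 8 for the small subunit and 12 for the large subunit. Their mean <30-nt share lay between 0.663% and 4.38% in siCtl and between 1.43% and 7.75% in siLarp1 libraries, and rose by 1.57 to 3.89 times. For 18 of the 20 the libraries of the groups did not overlap, against 6.48% of the tested genes in which every siLarp1 library lay above every siCtl library and 4.82% in which every one lay below. The 20 genes were called on these same shares, so a high count follows from the call. The calls depended on the control libraries. With siCtl library 19 or 21 left out, none of the 20 passed. With siCtl library 22 left out 3 of them passed, and with siLarp1 library 19, 21 or 22 left out 9, 15 and 9 did. With all quality tags 8 genes rose in place of 20, with limma on log2 odds 34, and with the limit at 35 nt 38. The direction was the same for the 20 genes in all 300 pairs of gene and alternative setting. These settings reuse the reads on which the 20 genes were called, so this count adds no support. In the 48 h libraries, 19 of the 20 were also higher in the siLarp1 mean, 17 of them without overlap between the 2 siCtl and 2 siLarp1 libraries. Among 1866 genes tested at 24 h and read in every 48 h library, the siLarp1 mean was higher in 53.3%, every siLarp1 library lay above in 17.7% and every one lay below in 7.45%. The exception was Rpl35a, which at 48 h was lower in siLarp1 by 1.57 percentage points, also without overlap. With 120 arrangements of the labels within each time point, the siLarp1 difference in the <30-nt class over all reads, 0.574 percentage points at 24 h and 0.896 at 48 h, was not distinguishable between the times (exact permutation p = 0.717, adjusted over 11 measures 0.937).

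To show the 5′ ends concerned, the sequence around the annotated transcription start is printed for genes with an entry in the RefSeq promoter table (GRCm38.p6), from 20 bases before the start to 10 bases from it, in the sense of the gene, with the longest run of a C followed by at least 4 pyrimidines in capitals. The first 8 rose in the <30-nt class, 6 of them shown with a run and Rps12 and Rps28 without one in this window. Eef1a1 is a TOP mRNA that did not pass, and Gapdh is no TOP mRNA. Where a gene has several annotated starts, the one with a run is printed: a second start of Rps24 and 2 further starts of Rpl35a have none.
Rps25 (chr9:44407694-44407723, plus strand): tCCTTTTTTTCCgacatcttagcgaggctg
Rpl35a (chr16:33056462-33056491, plus strand): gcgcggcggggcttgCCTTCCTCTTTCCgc
Rpl7a (chr2:26910787-26910816, plus strand): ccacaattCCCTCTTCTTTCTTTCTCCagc
Rps6 (chr4:86857358-86857387, minus strand): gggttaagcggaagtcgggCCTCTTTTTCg
Rps24 (chr14:24490658-24490687, plus strand): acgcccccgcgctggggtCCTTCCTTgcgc
Rpl27a (chr7:109519175-109519204, plus strand): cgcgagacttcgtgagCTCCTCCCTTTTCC
Rps12 (chr10:23787200-23787229, minus strand): ttaaataccgtcatgcggccaccgccggcc
Rps28 (chr17:33824553-33824582, minus strand): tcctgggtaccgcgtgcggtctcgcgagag
Eef1a1 (chr9:78481715-78481744, minus strand): cgtgtgctggctccgCCCTCTTCCCgaggg
Gapdh (chr6:125165764-125165793, minus strand): gggtccaaagagagggaggaggggaaatga

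A run was rarely at the first base of the annotated start. Of the 20 genes, 13 had an entry, and the C of a run (C followed by at least 4 bases that are C or T, on the sense strand) stood exactly at the start in 2, within 10 bases in 7 and within 20 bases in 10. Rpl24 and Rpl37 were the other called genes with an entry and no run in the printed window. Over all entries the same windows held the motif in 2.51%, 30.7% and 49.4% of promoters, so that the wider windows mark many genes that are not TOP mRNAs. Among 10083 measured genes with an entry, the 3736 with the motif within 10 bases had a <30-nt share of 2.15% ± 0.0969 in siCtl and 2.70% ± 0.285 in siLarp1 libraries (SD, n = 3 each). For the other genes it was 2.32% ± 0.172 and 2.88% ± 0.417. On the log2 odds scale, genes with the motif minus the others gave a mean of -0.116 in siCtl and -0.087 in siLarp1 libraries. This gap was smaller in siLarp1 by 0.03, with overlapping libraries (exact permutation p = 0.6). For the 299 genes with the C exactly at the start, the share was 1.66% ± 0.123 and 2.60% ± 0.0613 (SD, n = 3 each). For genes without it the share was 2.31% ± 0.159 and 2.82% ± 0.396 (SD, n = 3 each). The log2 odds of the former minus the latter averaged -0.49 in siCtl and -0.11 in siLarp1 libraries. This gap was smaller in siLarp1 by 0.37, again with overlapping libraries (exact permutation p = 0.2).

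Among the 20, Rps25 had the largest change. Rps25, a small-subunit protein used by some internal ribosome entry sites, had 0.38%, 0.77% and 0.99% of its reads in the <30-nt class in siCtl and 2.90%, 3.12% and 2.31% in siLarp1 libraries, a change in log2 odds of 1.87 (SE 0.34) with an adjusted p of 0.00218 in the limma-moderated fit. Rps27a, which is made as a fusion of ubiquitin with a small-subunit protein, had 1.47%, 1.65% and 1.78% against 3.41%, 3.86% and 3.56%, with a change of 1.16 (SE 0.20) and the same adjusted p. In both genes every siLarp1 library lay above every siCtl library by more than the spread within either group.

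Rpl36, of the large subunit, had 0.92%, 0.96% and 0.55% of its reads below 30 nt in siCtl and 1.35%, 2.56% and 3.45% in siLarp1 libraries. Rps28, of the small subunit, had 1.54%, 1.61% and 1.66% against 2.45%, 3.81% and 4.47%. Rpl11, which with Rpl5 and 5S rRNA can bind Mdm2 and so link the ribosome to p53, had 1.55%, 2.10% and 1.82% against 4.49%, 4.63% and 3.42%. The siCtl values were close to each other in these genes, whereas the siLarp1 libraries of Rpl36 and Rps28 spread widely. Rpl7 passed although its groups overlapped. It had 0.94%, 0.91% and 0.73% in siCtl and 0.77%, 2.44% and 3.43% in siLarp1 libraries, so that siLarp1 library 19 stood among the controls. Rpl24 had the highest share, at 4.38% ± 0.985 in siCtl and 7.75% ± 1.34 in siLarp1 libraries (SD, n = 3 each). Further genes called included Rps24, Rps12, Rps6, Rpl35a, Rpl27a, Rpl13, Rpl32, Rpl23a, Rpl19, Rpl7a and Rpl37, with changes in log2 odds from 0.67 in Rpl32 to 1.21 in Rps12.

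Further ribosomal protein genes stood just outside the threshold. Rps19 had an adjusted p of 0.0507, Rps23 0.0543, Rpl38 0.0546, and Rpl4, Rpl41 and Rps10 0.0550 each in the limma-moderated fit. Across all 82 ribosomal protein genes of the lists, 80 had a positive change, 51 had every siLarp1 library above every siCtl library and none had every one below, where the tested genes had 6.48% and 4.82%. The tested genes go down to 100 reads over the 6 libraries, fewer than most ribosomal protein genes had. These shares were not matched for depth. The median change was 0.87 in log2 odds, beside 0.31 over all tested genes. Only Rps7 and Rpl12 had a negative change, of -0.26 and -0.16, and neither passed. Within the family the <30-nt share in siCtl libraries ranged from 0.320% in Rps21 to 4.38% in Rpl24, and its median was 1.62% in siCtl and 2.85% in siLarp1 libraries. Summed over the family the share was 1.84%, 1.67% and 1.85% in siCtl and 2.93%, 3.15% and 3.17% in siLarp1 libraries. Ribosomal protein genes thus held 24.6% ± 2.64 of all <30-nt reads in siCtl and 34.3% ± 3.56 in siLarp1 libraries (SD, n = 3 each), without overlap, while their share of all reads was 31.1% ± 0.288 and 31.3% ± 0.228. Genes with several near-identical copies can lose reads to them in the alignment. The transcript named Rps2-ps10 drew 13464 reads at 24 h where Rps2 itself drew 271, so that values of either are uncertain.

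**Figure D3:**
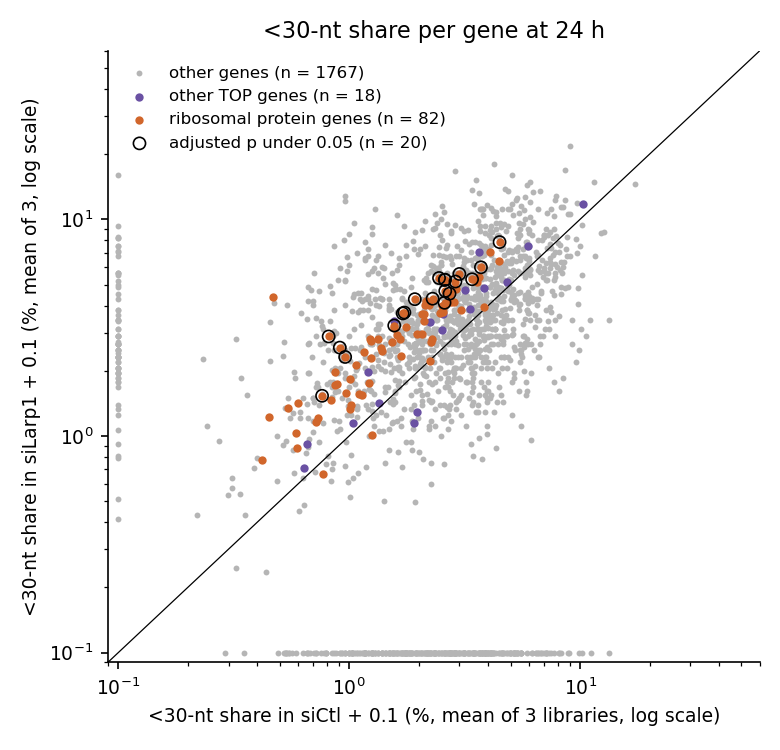
Mean <30-nt share per gene (%, with 0.1 added, log scales) in the 3 siCtl libraries (horizontal) and the 3 siLarp1 libraries (vertical) for the 1867 tested genes, with the line of equal shares. The 82 ribosomal protein genes (orange) lie above the line except Rps7, Rpl12 and, just below it, Rpl28, the 20 genes that passed are circled, and other genes (grey) with few reads scatter to both sides.

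Among other TOP mRNAs no gene passed. Of 22 listed genes 18 were measured and tested for the <30-nt class, of which 2 were higher at an unadjusted p under 0.05, 16 had a positive change and 4 had every siLarp1 library above every siCtl library, against 6.48% of all tested genes. Their summed <30-nt share was 2.35%, 2.06% and 2.29% in siCtl and 2.40%, 2.91% and 2.87% in siLarp1 libraries, without overlap. Their median change was 0.36 in log2 odds, near the 0.31 of all tested genes. Eef1a1, the elongation factor that brings aminoacyl-tRNA to the ribosome and the gene with the second most reads, had 0.59%, 0.39% and 0.62% of its reads below 30 nt in siCtl and 0.24%, 0.83% and 0.75% in siLarp1 libraries, which overlap. Npm1, a nucleolar histone chaperone, had 4.74% ± 0.430 and 5.04% ± 1.36 (SD, n = 3 each). Rack1, a scaffold on the small subunit, had a change of 0.85 (SE 0.30, adjusted p = 0.234 in the limma-moderated fit), and Tpt1, the translationally controlled tumour protein, one of 0.59 (SE 0.27, adjusted p = 0.506).

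The whole tail range was then set side by side for ribosomal protein genes and for other genes. Ribosomal protein genes had 3.08% ± 0.138 of their reads below 30 nt in siLarp1 and 1.78% ± 0.101 in siCtl libraries, and 19.2% ± 0.362 against 17.1% ± 1.37 between 30 and 60 nt (SD, n = 3 each), both without overlap. Between 90 and 120 nt they had 1.09 percentage points less, at 22.1% ± 0.577 against 23.1% ± 0.363, also without overlap, and each 30-nt step beyond was lower in the siLarp1 mean. Genes of no TOP list, with copies of ribosomal protein genes left out by name, had 0.204 percentage points more reads below 30 nt and 0.809 percentage points less between 30 and 60 nt, and more in each step from 120 nt upwards, with overlapping libraries in every step. Their <30-nt share was 2.42%, 2.86% and 2.32% in siCtl and 2.56%, 3.30% and 2.35% in siLarp1 libraries. The median tail of ribosomal protein reads was 96.5, 100.4 and 95.3 nt in siCtl and 94.4, 92.9 and 94.7 nt in siLarp1 libraries, without overlap, and that of the genes of no TOP list was 106.0, 106.7 and 106.2 nt against 107.9, 105.6 and 109.6 nt.

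**Figure D4:**
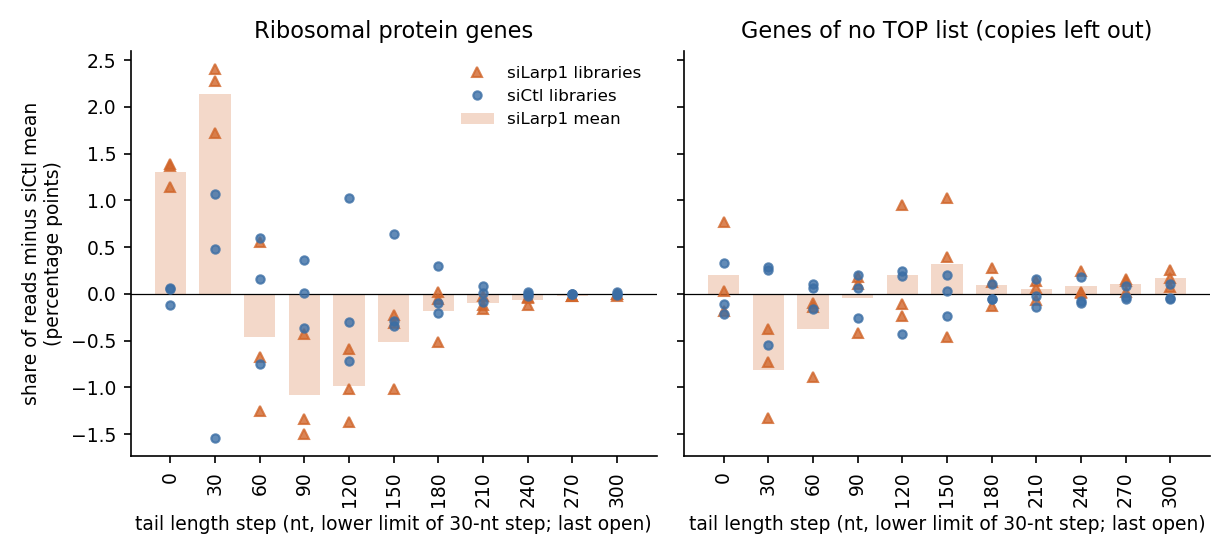
Share of reads in 30-nt steps of tail length minus the siCtl mean of that step (percentage points), for ribosomal protein genes (left) and genes of no TOP list with copies left out (right). Triangles are siLarp1 libraries, circles siCtl libraries and bars the siLarp1 mean. Ribosomal protein genes show positive siLarp1 values below 60 nt and negative means above it, and in the other genes the libraries overlap in every step.

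Ribosomal protein genes are also the most abundant genes, so the <30-nt share was set against abundance. This division was chosen after the values were seen. The 50 genes with most reads held 26.2% of all reads, and 46 of them were on the TOP lists. In the next 150 genes by reads, 47 genes of the TOP lists had a <30-nt share of 1.93% ± 0.156 in siCtl and 3.19% ± 0.228 in siLarp1 libraries, and 98 genes of no TOP list one of 1.77% ± 0.112 and 2.11% ± 0.169 (SD, n = 3 each), both without overlap. For genes of no TOP list on the ranks from there to 1000 the shares were 2.65% ± 0.291 and 2.97% ± 0.511. Beyond rank 1000 they were 2.94% ± 0.464 and 2.91% ± 0.685, and libraries overlapped in each of these ranges. The median tail of genes of no TOP list was also longer in the siLarp1 mean there. It differed by 2.03 nt up to rank 1000, with overlapping libraries, and by 2.59 nt beyond it, without overlap. For the 98 such genes among the next 150 it differed by -0.742 nt, with overlapping libraries.

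The other classes gave fewer calls. In the class of 30 to 90 nt, 6 of 1945 tested genes rose (0.308%) and none fell, and in the class of 90 to 150 nt, 5 fell (0.257%) and none rose in the limma-moderated fit. At an unadjusted p under 0.05, 85 were lower in the former and 48 higher in the latter. Gapdh, the glycolytic glyceraldehyde-3-phosphate dehydrogenase and the gene with most reads, was the only gene among both sets that is no ribosomal protein gene or copy of one. Its share of reads with tails of 30 to 90 nt was 31.7%, 32.8% and 31.3% in siCtl and 37.64%, 38.10% and 33.99% in siLarp1 libraries, a change in log2 odds of 0.29 (SE 0.05, adjusted p = 0.000292 in the limma-moderated fit). Its 90-to-150-nt share fell from 46.5% ± 0.246 to 43.0% ± 1.24 (SD, n = 3 each). Rps21 rose in the 30-to-90-nt class from 29.7%, 27.4% and 32.6% to 34.9%, 35.4% and 40.4%, without overlap. Rps12 and Rpl23a rose in the 30-to-90-nt class by 0.33 and 0.30 in log2 odds and fell in the 90-to-150-nt class by 0.31 and 0.30. Rplp1 of the ribosomal stalk and Rps2-ps10 rose in the former, and Rps27a and Rps2-ps10 fell in the latter. With siLarp1 library 19 or 21 left out no gene rose in the 30-to-90-nt class, and with siCtl library 21 or siLarp1 library 22 left out none fell in the 90-to-150-nt class. Without siCtl library 22, 13 genes rose in the former, without siCtl library 21 there were 2 and without siLarp1 library 22 there were 3. Without siLarp1 library 19 or 21, 1 and 2 genes fell in the latter. In the class of 150 nt or longer 0% of 1945 genes were called by the limma-moderated fit, where 60 were higher and 46 lower at an unadjusted p under 0.05, and a fit of log2 odds with limma called 1. Psmb7, a proteasome subunit, had the smallest unadjusted p there, 0.000139, with a change of 1.23 (SE 0.31, adjusted p = 0.27).

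No gene passed for its median tail. Of 1444 genes with at least 10 reads in every library 0% were called by limma, with 50 higher and 30 lower at an unadjusted p under 0.05, and 1 gene was called lower without siCtl library 21. In 6.09% of them every siLarp1 library lay below every siCtl library, and in 6.44% every one lay above. Among the 82 ribosomal protein genes, 69 had a lower and 13 a higher median in siLarp1, with a median change of -3.07 nt beside 1.03 nt over all tested genes, and 23 had every siLarp1 library below every siCtl library while none had every one above. Rpl23a and Rps12 had the smallest unadjusted p among genes with shorter tails. The median tail of Rps12 was 93.2, 98.5 and 95.7 nt in siCtl and 89.9, 86.7 and 89.0 nt in siLarp1 libraries, and limma gave a change of -7.38 nt (SE 2.40, adjusted p = 0.532). Among genes with longer tails, Fabp3, a fatty acid-binding protein, had 110.7, 100.8 and 105.0 nt against 138.9, 180.6 and 150.8 nt (change 52.2 nt, SE 13.3, adjusted p = 0.383 by limma, 162 reads in all). Idh3b, a subunit of the mitochondrial isocitrate dehydrogenase, had 76.6, 77.0 and 75.6 nt against 112.7, 112.5 and 109.1 nt (adjusted p = 0.532 by limma, 205 reads in all). In both genes every siLarp1 library lay above every siCtl library, but both rested on few reads in each siLarp1 library. The siLarp1 libraries of Fabp3 also spread widely.

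Reads per gene did not pass for any of 4800 genes either (0% called by limma, with 168 higher and 102 lower at an unadjusted p under 0.05). Without siCtl library 22, 5 genes were called higher and 3 lower. In 4.69% of these genes every siLarp1 library lay above every siCtl library and in 6.19% every one lay below. Atp5pb, a subunit of the ATP synthase stalk, came closest, at 552, 572 and 588 RPM in siCtl and 359, 374 and 331 RPM in siLarp1 libraries (log2 fold change -0.69, SE 0.14, adjusted p = 0.0935 by limma). Hnrnpab, an RNA-binding protein, had 1246, 1206 and 1351 RPM against 1026, 1114 and 821 RPM (adjusted p = 0.485 by limma). Upf3b, a factor of nonsense-mediated decay, had 31.1, 29.0 and 23.6 RPM in siCtl and none, none and 6.37 RPM in siLarp1 libraries on 30 reads in all. In the other direction, Naa60, an N-terminal acetyltransferase, had 10.4, 14.5 and 9.45 RPM against 41.7, 52.3 and 44.6 RPM on 31 reads. Each of these genes was separated between the groups, and none passed.

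No ribosomal protein gene passed for its level. Their median log2 fold change in reads was -0.005 with 36 genes higher and 46 lower, and their summed level was 308175, 313764 and 309794 RPM in siCtl and 315944, 312141 and 311874 RPM in siLarp1 libraries. Of the 20 genes that gained <30-nt tails, 11 had fewer reads and the median log2 fold change was -0.01. The non-ribosomal TOP mRNAs had 17 of 18 log2 fold changes below 0, with a median of -0.10 beside 0.01 over all tested genes. In 6 of the 18 every siLarp1 library lay below every siCtl library. Over all 4800 tested genes 2347 were lower, and in 6.19% every siLarp1 library lay below. These shares were not matched for depth. For Eef1a1 the level was 11100, 11840 and 9870 RPM in siCtl and 10454, 10751 and 9283 RPM in siLarp1 libraries, which overlap, and for Npm1 the log2 fold change was -0.19 (SE 0.05, adjusted p = 0.485 by limma).

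Outside the ribosomal protein and TOP lists no listed gene was called in the <30-nt class by the limma-moderated fit. The 75 tested genes of oxidative phosphorylation had 59 positive changes in the <30-nt class with a median of 0.59 in log2 odds, 9 of them had every siLarp1 library above every siCtl library, and 12 were higher at an unadjusted p under 0.05. Over all 1867 tested genes, 1143 changes were positive, 121 genes (6.48%) had every siLarp1 library above and 140 were higher at that p. The summed <30-nt share of the oxidative phosphorylation genes was 2.03%, 1.59% and 1.79% in siCtl and 2.48%, 2.67% and 2.48% in siLarp1 libraries, without overlap. Atp5g3 and Cox8a, subunits of ATP synthase and of cytochrome c oxidase, had changes of 0.93 (SE 0.43) and 1.41 (SE 0.65), neither past the threshold. The glycolytic genes had 11 of 13 positive changes with a median of 0.66, and a summed share of 0.776% ± 0.0885 against 1.20% ± 0.264 (SD, n = 3 each), also without overlap. Pkm, pyruvate kinase, had 0.630% ± 0.121 and 1.57% ± 0.241 (adjusted p = 0.162 in the limma-moderated fit). The iron and antioxidant genes had 12 of 16 positive changes with a median of 0.57, and a summed share of 0.778% ± 0.0759 against 1.22% ± 0.146 (SD, n = 3 each), without overlap, with Ftl1, the ferritin light chain, at a change of 2.30 (SE 0.75, adjusted p = 0.123 in the limma-moderated fit).

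Other lists had longer median tails in most of their genes. Genes of no TOP list leaned the same way, with 763 of 1323 longer and a median change of 1.60 nt. Whether the lists below exceed other genes of like abundance was not tested. Of 33 proteasome subunit genes, 27 had a longer median tail in siLarp1, with a median change of 4.62 nt, and 9 had every siLarp1 library above every siCtl library. Over all tested genes 795 of 1444 had a longer median, and in 6.44% every siLarp1 library lay above. Of 34 nucleolar ribosome biogenesis genes 29 had a longer median tail (median change 5.50 nt), and of 44 mitochondrial ribosomal protein genes 29 did (median change 5.19 nt), beside a median change of 1.03 nt over all tested genes. The reads of the mitochondrial ribosomal protein genes had median tails of 94.8, 97.3 and 94.0 nt in siCtl and 99.5, 100.3 and 100.3 nt in siLarp1 libraries. The reads of proteasome subunit genes had 94.0, 94.7 and 93.9 nt against 99.8, 97.2 and 103.4 nt. Both lists had fewer reads in every siLarp1 library, at 10690 RPM ± 299 and 9621 RPM ± 779 for the mitochondrial ribosomal proteins and 11665 RPM ± 241 and 10874 RPM ± 237 for the proteasome (SD, n = 3 each). So had the nucleolar ribosome biogenesis genes, at 15269 RPM ± 270 and 14322 RPM ± 401 (SD, n = 3 each). The chaperones also had fewer reads in every siLarp1 library, and the p53 targets more. Mrpl51 had the longest difference among the 4 mitochondrial ribosomal protein genes with most reads, at 14.5 nt (SE 7.66, adjusted p = 0.742 by limma). No gene of these lists passed for tail or level by limma. At an unadjusted p under 0.05 by limma, 5 of 33 proteasome and 4 of 44 mitochondrial ribosomal protein genes had longer tails. Over all 1444 tested genes 50 were longer and 30 shorter. Fewer reads at that p were seen in 3 of 33 proteasome and 11 of 78 mitochondrial ribosomal protein genes, and 1 of the latter had more. Over all 4800 tested genes 102 had fewer and 168 more.

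**Figure D5:**
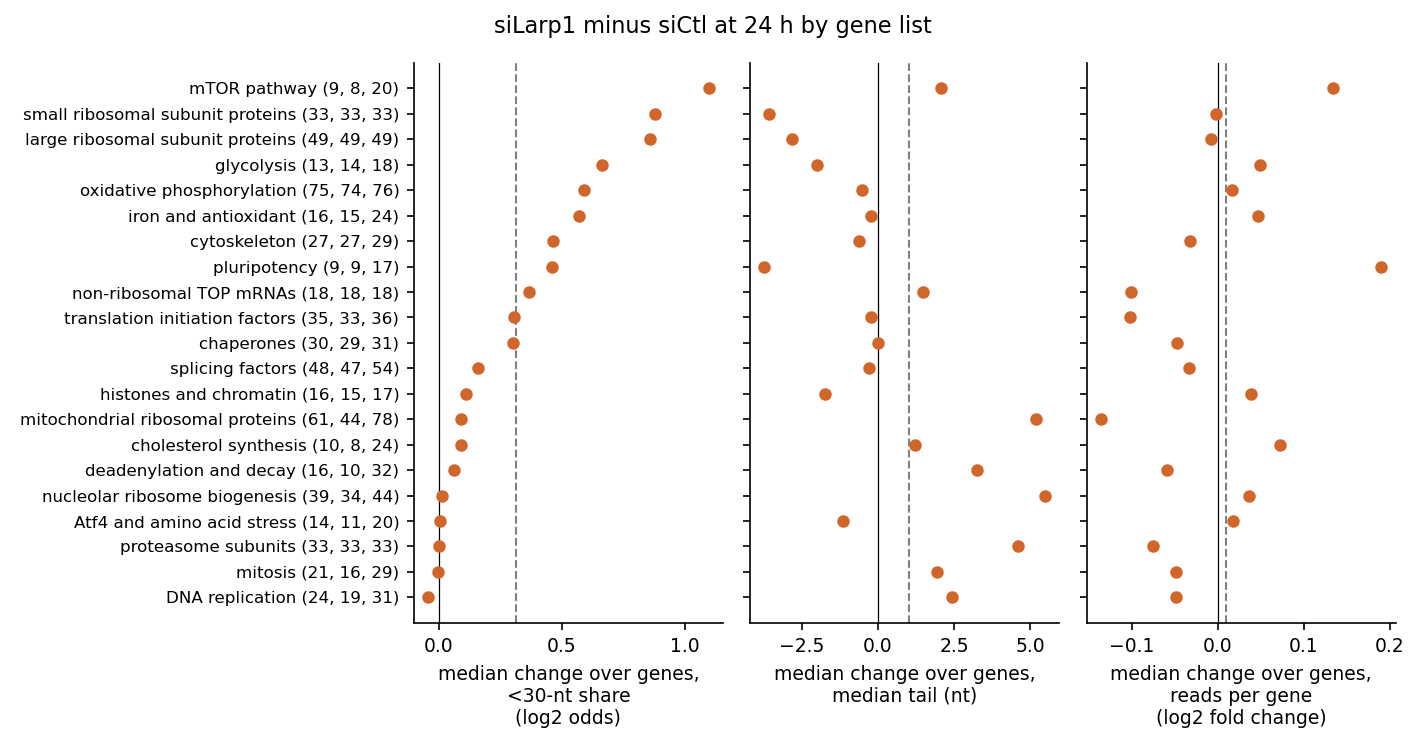
Median over the genes of each list of the siLarp1 change in the <30-nt class (log2 odds, left), in the median tail (nt, centre) and in reads per gene (log2 fold change, right), for lists with at least 9 genes tested in the <30-nt class. Numbers in brackets are the genes tested in each panel and the dashed line is the median over all tested genes. Both ribosomal subunits lie right of the line on the left and left of 0 in the centre, whereas proteasome, nucleolar and mitochondrial ribosomal genes lie to the right in the centre.

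The remaining lists follow by their counts. Translation initiation factors had 26 of 35 positive changes in the <30-nt class with a median of 0.31, as in all tested genes. Their summed <30-nt share was 2.32% ± 0.247 in siCtl and 3.01% ± 0.587 in siLarp1 libraries, without overlap, and their summed level was lower in every siLarp1 library, at 17368 RPM ± 168 against 16137 RPM ± 627 (SD, n = 3 each). Of the mTOR pathway genes only 9 could be tested, 5 of which had a positive change, with a median of 1.10 from genes with few reads. Splicing factors had 28 of 48, chaperones 20 of 30 and cytoskeleton genes 18 of 27 positive changes. Genes of deadenylation and decay had 9 of 16, while their summed <30-nt share was lower in every siLarp1 library, at 2.89%, 4.07% and 3.23% in siCtl and 2.03%, 2.72% and 2.49% in siLarp1 libraries on 143 reads below 30 nt. The summed share of the La-related proteins was also lower without overlap, on 18 such reads. Cholesterol synthesis genes had 6 of 10 positive changes, histone and chromatin genes 10 of 16, DNA replication genes 11 of 24 and mitosis genes 9 of 21. Atf4 and amino acid stress genes had 7 of 14 and pluripotency genes 5 of 9. For poly(A)-binding proteins, La-related proteins, p53 targets, interferon response genes, selenoproteins, short-lived transcription factors and both sets of differentiation markers at most 7 genes could be tested.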

How the data were processed

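The deposited table, with 1 line per alignment, holds the tail length (nt), its quality tag and a barcode confidence given as a fraction. The authors made it by basecalling with Guppy, demultiplexing with Deeplexicon, alignment with minimap2 2.20 to mouse transcripts (mm10, GENCODE) and tail estimation with Nanopolish. Reads per gene were tallied here, and no column of another sample was used. Kept were PASS alignments to nuclear mRNAs outside pseudogenes. Which labelled replicate a library number stands for is not given in the sources used here, and the study's methods call the 3 libraries of a group biological replicates.

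Library values were compared by exact permutation tests (two-sided, Python 3.11.15). Tail classes per gene (at least 100 reads over the 6 libraries, and at least 1 read in and 1 outside the class) were fitted by a quasi-binomial model with dispersions moderated by limma 3.58.1 in R 4.3.3, with a dispersion floor of 1. Medians (at least 10 reads in every library) were fitted by limma with weights and reads per gene (at least 30 reads) by limma on log2 values. The threshold was an adjusted p under 0.05. Steps were tested on simulated data. Members and gene lists were chosen with earlier results of these data known. Named genes were the 5 largest changes past the threshold in each direction (otherwise up to 3 with the smallest unadjusted p), Larp1, the 10 genes with most reads and up to 4 genes with most reads per list. Alternatives were all quality tags, a barcode confidence of at least 0.9, reads with 1 alignment, thinning to equal depth, other class limits and read minimums, limma on log2 odds, run dates, a replicate block and leaving out each library. Some genes are not reported here by name.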

Additional observations from a re-analysis of the deposited data

How the results depend on the processing

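With 3 libraries per group no exact test of a library value could pass 0.05, so their p-values say nothing of stability. The <30-nt difference of 0.574 percentage points lay between 0.381 and 0.678 without 1 library and between 0.379 and 0.751 under the other processing settings, and was 0.245 without ribosomal protein genes and 0.204 without genes of the TOP lists and copies (the last 2 chosen after seeing the data, both with overlapping libraries). The small differences in the other classes changed sign. The 30-to-90-nt difference was 0.152 in runs of the first run date, 0.0687 with the short limit at 25 nt and -0.742 to 0.336 without 1 library. The difference for 150 nt or longer was -0.120 in runs of the first run date and -0.111 to 0.653 without 1 library, and with fixed gene composition -0.851 to 0.0313. With each gene counted once the median differed by 0.185 nt, the 90th percentile by -0.493 nt and the 95th by -1.96 nt, and without 1 library the median differed by -1.23 to 0.457 nt, the 75th percentile by -0.460 to 1.305 nt and the 90th by -0.0317 to 1.51 nt. The siLarp1 change in the log2 odds of TOP-start genes relative to other genes ran from -0.0107 to 0.0688 without 1 library.

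Genes called higher in the <30-nt class numbered 8 with all quality tags, 34 with limma on log2 odds, 38 with the limit at 35 nt and 0 to 20 without 1 library, and 1 gene was called lower after thinning to equal depth, where 13 of the 20 remained called. For 30 to 90 nt, 0 to 13 genes were called higher and 0 to 1 lower without 1 library, and 1 was lower with all quality tags. For 90 to 150 nt, 0 to 7 were called lower without 1 library, 3 with the minimum of 30 reads and 3 after thinning, which also called 1 higher. Limma on log2 odds called 1 gene higher for 150 nt or longer. For the median tail 0 to 1 gene was called lower without 1 library. For reads per gene, 10 higher and 5 lower were called with a minimum of 1 read, and 0 to 5 higher and 0 to 3 lower without 1 library. The cause was not tested. Library numbers are shared between the groups, and what a number stands for is not given in the sources used here. Same-numbered libraries deviated together with r = 0.0943, 0.349 and 0.379 for reads per gene, and each siLarp1 library correlated best with its own number there, a hint from the data and not the design. With the replicate block 0 genes were called higher for <30 nt and 3 for 30 to 90 nt, and 13 higher and 7 lower for reads per gene, while the paired exact p of the <30-nt share was 0.25, the smallest possible.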
